A study of Mus musculus with 14 samples.

Results

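The 9 genes described here carry the insulin and insulin-like growth factor signal from the cell surface to mTOR: the receptors Igf1r and Insr, the adaptors Irs1 and Irs2, the kinases Akt1 and Akt2, the mTOR complex 1 subunits Mtor and Rptor, and the inhibitor Tsc1. They were chosen by name and matched by symbol to the gene identifiers of each table, and they are 9 of the 14837 genes of the input table. All 9 were listed in the input, 8 in the m6A-RIP table with 26 rows, 6 in the Igf2bp3-RIP table with 40 peaks and 5 in the Lin28a-RIP table with 48 peaks. Mtor had no m6A-RIP row, and Irs2, Akt1 and Tsc1 had no peak assigned to them in either protein's RIP table, although 2 Igf2bp3-RIP peaks assigned to 9530052E02Rik lie inside the span of Irs2.

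The study asked what the RNA-binding protein Lin28a does in mouse muscle stem cells (MuSCs), the cells that regenerate skeletal muscle. Lin28a+ MuSCs, sorted from Lin28a-CreERT2; LSL-tdTomato mice in which a Lin28a-driven Cre marks the cells, were compared with control MuSCs, whose genotype the labels give only as control. Both groups were cultured on Matrigel in DMEM with 10% fetal bovine serum, and neither was treated. There were 14 libraries: 2 input RNA, 2 m6A-RIP and 2 Igf2bp3-RIP libraries of each group, and 2 Lin28a-RIP libraries of Lin28a+ cells. RIP is the sequencing of RNA pulled down with an antibody, here against the RNA mark m6A, the m6A reader Igf2bp3 or Lin28a itself. The mice's age, the number of animals and the way replicates were prepared are not given in the labels, so p-values measure the spread between these libraries, which may be technical.

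Insulin and insulin-like growth factors bind receptor tyrosine kinases that phosphorylate Irs adaptors. The adaptors recruit PI3K, whose lipid product brings Akt to the membrane, and Akt inhibits the TSC complex, which releases mTOR complex 1 to drive protein synthesis and growth. In muscle stem cells this route is known for its part in leaving quiescence and in growth. Lin28 proteins are known to block maturation of let-7 microRNAs, and Igf1r, Insr and Irs2 are textbook examples of let-7 targets in this pathway, while Lin28 can also bind messenger RNA directly, often at GGAG-containing stretches.

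No small RNA was measured here. The mature sequences of 2 let-7 members, from RefSeq at GRCm38.p6, are shown because the link between Lin28 and these genes is usually drawn through their seed, bases 2 to 8, here in capitals and the same in both:
mmu-let-7a-5p (chr13:48538239-48538260, minus strand): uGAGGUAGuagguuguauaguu
mmu-let-7g-5p (chr9:106178846-106178867, plus strand): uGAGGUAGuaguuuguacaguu

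The input libraries held 4842915 to 6220960 estimated counts, the m6A-RIP libraries 21350962 to 31830638, the Igf2bp3-RIP libraries 9215355 to 34142094 and the Lin28a-RIP libraries 33908110 to 36610494. Both Lin28a+ input columns are headed with m6A-RIP sample names and have no replicate number that could be used. Their Spearman correlation was 0.942 with each control input library and at most 0.512 with any m6A-RIP library, over 8063 genes. Of the myogenic markers, Myod1 stood at 4542 to 4775 CPM (counts scaled to a common library total) in all input libraries and was not called. Summed endothelial and macrophage markers reached at most 0.886 and 3.18 CPM, with Cdh5, Kdr and Adgre1 not listed. Of the muscle differentiation list 5 of 10 genes were higher in Lin28a+ cells (Myog, Mymx, Actc1, Tnnt1 and Ckm) and 5 lower (Acta1, Mymk, Myh3, Tnnt2 and Myl4). The list summed to 5740 to 5902 CPM in control and 6776 to 6796 in Lin28a+ libraries. The myogenic list had 2 genes higher (Pax7 and Cdh15) and 5 lower (Myf5, Des, Vcam1, Megf10 and Sdc4) of 9. It summed to 8894 to 9298 CPM in control and 9025 to 9145 in Lin28a+ libraries, with Myod1 its largest member. The fibro-adipogenic list (1 higher, Ly6a, and 1 lower, Gsn, of 2 tested) summed to 144.8 to 153.8 and 77.7 to 77.8, with Dcn and Lum not listed. The pericyte or smooth muscle list (3 higher, Acta2, Pdgfrb and Notch3, and 2 lower, Tagln and Rgs5, of 5) summed to 5741 to 5837 and 7763 to 7776. Acta2 alone stood at 5311 and 5396 CPM in control and at 7484 and 7495 in Lin28a+ libraries. The part of these in the differences below was not tested, and in bulk RNA fewer cells of a type and less RNA per cell cannot be told apart.

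Among RNA levels, Irs2 rose most and Insr fell most of the 9 genes in Lin28a+ MuSCs. Irs2, Akt1, Akt2 and Rptor were higher, and Insr, Igf1r, Irs1 and Mtor were lower, past an adjusted p of 0.05 in edgeR's quasi-likelihood test with Benjamini-Hochberg adjustment over all genes. Tsc1 did not pass. In the same test 56.8% of 11317 genes were called, so that 8 of 9 is read against a background in which most genes differ (28.1% higher, 28.7% lower). Libraries of the groups did not overlap for any of the 9 genes, nor for 84.8% of all genes tested. Levels below are CPM scaled by TMM factors, and changes are log2 fold changes of Lin28a+ over control.

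**Figure D1:**
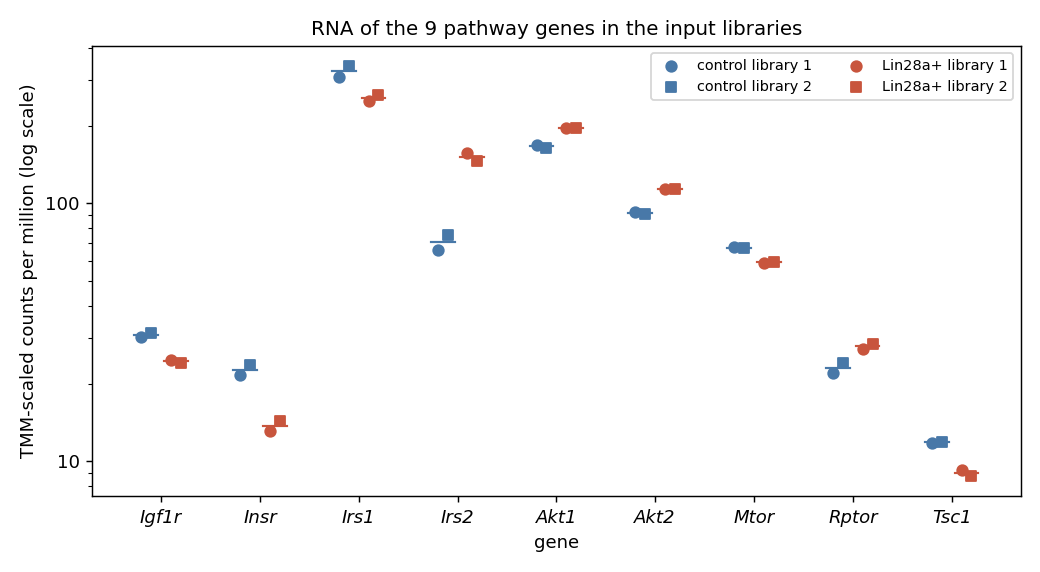
RNA of the 9 pathway genes in TMM-scaled CPM on a log axis, with a circle and a square for the libraries of each group and a bar at each group mean. For each gene both Lin28a+ libraries lie on the same side of both controls, as for 84.8% of all genes, and Irs2 shows the widest gap.

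Of the receptors, Igf1r, the receptor for insulin-like growth factors, stood at 30.3 and 31.5 CPM in control cells and at 24.8 and 24.1 in Lin28a+ cells. The groups did not overlap and the change was −0.34 ± 0.072 (SE; adjusted p = 0.00906). Insr, the insulin receptor, stood at 21.5 and 23.7 CPM in control cells and at 13.2 and 14.3 in Lin28a+ cells. This was a change of −0.72 ± 0.083 (adjusted p = 0.000772), or 0.606 times the control level. Without control replicate 2 or without the second Lin28a+ column Igf1r was no longer called (adjusted p = 0.0671 and 0.0566).

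The adaptors moved in opposite directions. Irs1 stood at 310.6 and 340.0 CPM in control cells and at 249.0 and 264.3 in Lin28a+ cells, a change of −0.34 ± 0.054 (adjusted p = 0.00268). Irs2 stood at 65.7 and 75.5 CPM in control cells and at 156.8 and 145.6 in Lin28a+ cells. Its change of 1.09 ± 0.070 was a 2.13-fold rise (adjusted p = 9.98e-05), larger than that of 96.1% of genes tested. The quotient of Irs2 over Irs1 counts within a library was 0.212 and 0.222 in control cells and 0.630 and 0.551 in Lin28a+ cells. Since neither value is per length, the quotient says how the balance shifted between groups and not which RNA was more abundant.

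Akt1 and Akt2, the serine kinases that pass the PI3K signal on, were both modestly higher. Akt1 stood at 168.0 and 164.6 CPM in control cells and at 196.7 and 196.9 in Lin28a+ cells (0.24 ± 0.027, adjusted p = 0.000697). Akt2, the isoform best known for insulin-stimulated glucose uptake, stood at 92.7 and 91.4 against 114.0 and 113.5 (0.31 ± 0.031, adjusted p = 0.000480). Replicates of these genes lay within a few CPM of each other, so that changes of 1.18 and 1.24 times were larger than the spread. The quotient of Akt1 over Akt2 was 1.81 and 1.80 in control and 1.73 and 1.74 in Lin28a+ libraries.

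The mTOR complex 1 subunits differed little. Mtor, the kinase, stood at 67.8 and 67.1 CPM in control cells and at 58.6 and 59.5 in Lin28a+ cells (−0.19 ± 0.054, adjusted p = 0.0276). Rptor, which presents substrates to the kinase, stood at 22.1 and 24.0 against 27.3 and 28.6 (0.27 ± 0.091, adjusted p = 0.0464). Neither call was kept when any of the 4 libraries was left out (adjusted p = 0.0712 to 0.121 for Mtor and 0.0618 to 0.207 for Rptor). Mtor was also lost with total counts (0.0621) and with no filter on low counts (0.0501), and Rptor with RLE factors (0.0539) and with at least 10 counts in every library (0.0707). Tsc1, which with Tsc2 restrains mTOR complex 1 through Rheb, stood at 11.8 and 11.9 CPM in control cells and at 9.24 and 8.79 in Lin28a+ cells. The groups did not overlap, but the change of −0.39 ± 0.15 did not pass (adjusted p = 0.0704).

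With DESeq2 in place of edgeR, Irs2 and Irs1 stayed past the threshold (adjusted p = 3.83e-14 and 0.000744). Insr, Akt1 and Akt2 came to 0.0622, 0.0730 and 0.0791, and Igf1r, Mtor, Rptor and Tsc1 to 0.33, 0.421, 0.4998 and 0.521. All 9 kept their direction.

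In a list of 133 genes of the pathway, 115 could be tested for RNA: 23 were higher, 44 were lower and 48 did not pass, with a median change of −0.11 against 0.0098 over all genes tested. That is 58.3% called beside the background of 56.8%, with lower genes at 38.3% beside 28.7%. By role, the receptors had 0 higher and 2 lower of 3 genes, the adaptors 2 higher and 3 lower of 10, and Akt with its activating kinase 3 higher and 2 lower of 5. The mTOR complex 1 subunits had 1 higher and 2 lower of 7, those of mTOR complex 2 had 0 higher and 1 lower of 4, and the TSC complex with Rheb 1 higher and 1 lower of 4. The PI3K subunits had 2 higher and 5 lower of 10, the energy and stress inputs 1 higher and 5 lower of 10, and the targets of mTOR complex 1 and Akt 7 higher and 11 lower of 25. The amino acid branch had 6 higher and 9 lower of 28. The lipid and Akt phosphatases had 0 higher and 2 lower of 8. DESeq2 called 28 of the 115 genes (24.3%), 6 higher and 22 lower, beside 26.9% of all genes (13.1% higher, 13.8% lower).

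Lowest relative to control in that list was the growth factor Igf2, at 882.5 and 902.7 CPM in control cells and at 85.5 and 87.1 in Lin28a+ cells (−3.37 ± 0.031, adjusted p = 1.26e-06). Next in order of p, which decided the genes named here, were Deptor, an inhibitor subunit of both mTOR complexes (−2.89), and Pik3r3, a regulatory PI3K subunit (−1.97). Fnip1 (−1.37) and Sesn3 (−1.50) of the amino acid branch, the AMPK catalytic subunit Prkaa1 (−0.85), the kinase Gsk3b (−0.67) and the stress-induced Ddit4l (−1.52) were lower as well. Higher were the translation repressors Eif4ebp1 (0.64) and Eif4ebp2 (0.31), the ribosomal protein Rps6 (0.28), the regulatory subunit Pik3r2 (0.62), the kinase Stk11 that activates AMPK (0.49), the glucose transporter Slc2a1 (0.47), the GTPase Rragb (1.66) and Maf1 (0.76), a repressor of RNA polymerase III. With DESeq2, Stk11, Slc2a1 and Maf1 did not pass (adjusted p = 0.0851, 0.0715 and 0.157).

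Rows of the m6A-RIP table hold counts of immunoprecipitated RNA with a transcript but no position, so they are numbered here in the order of the table. Of 26 member rows 22 passed, 9 higher and 13 lower, beside 61.8% of 18881 rows (30% higher, 31.8% lower). The 26 rows come from 8 genes, and rows of a gene share their libraries and RNA and are not replicates of each other. Rows of a gene went the same way: all 4 of Igf1r and all 3 of Insr were lower, 6 of 7 of Irs1 were lower, and the row of Irs2, all 4 of Akt1 and all 4 of Akt2 were higher. Neither row of Rptor nor the row of Tsc1 passed. Scaling by total counts moved the median of all rows by −0.15 and left 18 calls, 5 higher and 13 lower, beside 20.3% higher and 40.5% lower over all rows, the lost ones being rows 2 and 3 of Akt1 and of Akt2.

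**Figure D2:**
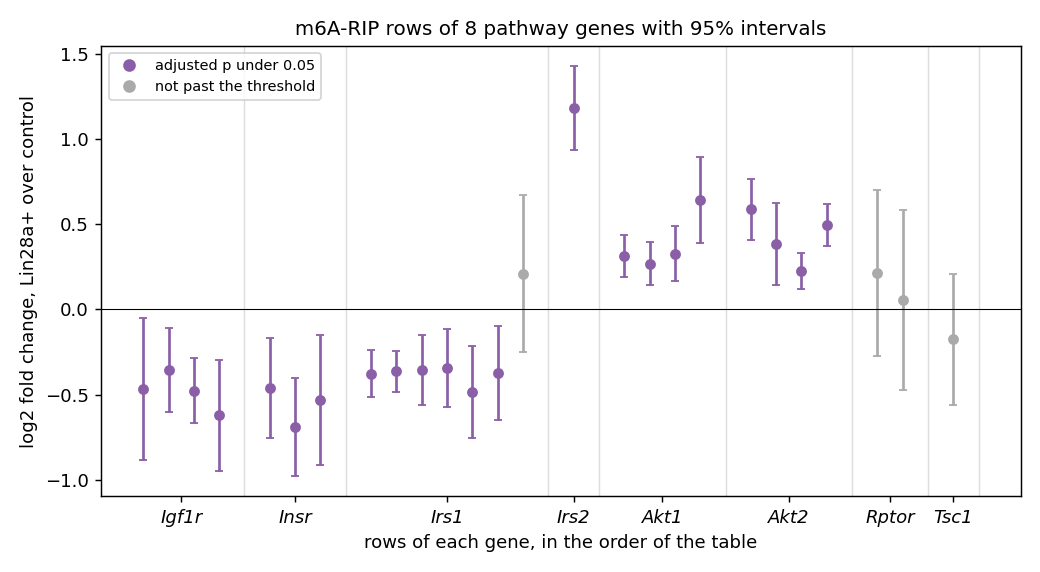
Log2 fold change of each of the 26 m6A-RIP rows of 8 pathway genes, in table order, with 95% intervals; purple rows passed an adjusted p of 0.05. Rows of the receptors and of Irs1 lie below 0 except the last of Irs1, and rows of Irs2, Akt1 and Akt2 lie above it.

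For Igf1r the 4 rows changed by −0.62 to −0.35. The least abundant, row 1, stood at 8.93 and 6.55 CPM in control against 5.95 and 5.39 in Lin28a+ libraries and lay at the threshold (adjusted p = 0.049997). That call was lost with DESeq2, with RLE factors and when any library but control replicate 2 was left out. Rows 2 and 4 were each lost in at least 1 of the 4 fits that leave out a library (adjusted p up to 0.0942 and 0.0533). For Insr the 3 rows changed by −0.69 to −0.46, of which rows 1 and 3 were lost in the same way (up to 0.104 and 0.0889). The same held for rows 3, 4 and 6 of Irs1 (up to 0.0603, 0.121 and 0.345) and row 2 of Akt2 (up to 0.132). Row 7 of Irs1 was the member row that went against its gene, at 4.27 and 4.07 CPM in control and 4.26 and 5.35 in Lin28a+ libraries. Its groups overlapped and its change of 0.21 ± 0.22 did not pass. Rows of Akt1 changed by 0.27 to 0.64 and rows of Akt2 by 0.23 to 0.59.

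When each row was tested against the other rows of its gene, 0 of 24 member rows passed with edgeR and 4 had an unadjusted p under 0.05, beside 7.79% of 14366 rows called (3.79% higher, 4% lower) and 15% with an unadjusted p under 0.05. At 16.7% the member rows were near that background. The 4 were row 4 of Akt1 (0.30 above its gene, adjusted p = 0.111), rows 1 and 4 of Akt2 (0.26 and 0.17, adjusted p = 0.156 and 0.321) and row 7 of Irs1 (0.57, adjusted p = 0.113). No other tool was run for this test. Without the first Lin28a+ m6A-RIP column 1 row, row 4 of Akt1, passed (adjusted p = 0.00679), which is 4.17% of member rows beside 5.76% of all rows in that setting.

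With rows summed, 6 of 8 members passed, beside 66.3% of 9416 genes (32.5% higher, 33.8% lower). Igf1r stood at 74.0 and 67.7 CPM in control against 48.5 and 50.9 in Lin28a+ libraries (−0.51 ± 0.065, adjusted p = 1.91e-05). Insr stood at 40.6 and 43.4 against 29.0 and 26.0 (−0.61 ± 0.082, adjusted p = 2.85e-05). Groups did not overlap for either receptor, nor for 82.6% of all genes.

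Irs1 stood at 245.6 and 249.2 CPM in control against 187.3 and 184.5 in Lin28a+ libraries (−0.41 ± 0.040, adjusted p = 1.64e-06). Irs2 stood at 10.9 and 10.9 against 23.9 and 23.9 (1.13 ± 0.11, adjusted p = 2.51e-06). The adaptors thus went apart in m6A-RIP as in RNA, and the quotient of Irs2 over Irs1 was 0.0445 and 0.0439 in control and 0.128 and 0.129 in Lin28a+ libraries.

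Akt1 stood at 224.8 and 235.7 CPM in control against 272.9 and 290.5 in Lin28a+ libraries (0.29 ± 0.046, adjusted p = 0.000108), and Akt2 at 269.5 and 279.9 against 333.0 and 332.9 (0.28 ± 0.040, adjusted p = 5.66e-05). Rptor, at 6.80 and 8.18 against 8.09 and 7.63, overlapped between groups (0.076 ± 0.17, adjusted p = 0.706), and its sign turned with total counts (−0.025). Tsc1 overlapped too, at 7.80 and 8.95 against 6.09 and 8.06 (−0.23 ± 0.18, adjusted p = 0.287). Scaling by total counts moved the median of all genes by −0.10 and kept all 6 member calls.

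Of the pathway list, 89 genes were in the m6A-RIP data, of which 27 were higher and 37 lower (71.9%, beside 66.3% of all genes), with a median of −0.097 beside 0.0070 over all genes. DESeq2 called 20 higher and 32 lower (58.4%), beside 60.7% of all genes. With total counts 19 were higher and 43 lower, while over all genes the share of higher calls went to 25.4% and that of lower calls to 40%. The 5 higher genes with the smallest p outside the members were Eif4ebp1 (0.69), Slc2a1 (0.53), Pik3r2 (0.63), Stk11 (0.43) and the AMPK subunit Prkab1 (0.42). The 5 lower ones were Mdm2 (−1.10), an E3 ligase and Akt substrate, the regulatory subunit Pik3r1 (−1.73), Igf2 (−2.49), Deptor (−3.17) and the GTPase Rragc (−0.54).

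The m6A-RIP change of each member was set against its RNA change by the interaction of cells and assay in a single model. In this test 0 of 8 members passed and 0 had an unadjusted p under 0.05, beside 7.27% of 7511 genes called (3.32% higher, 3.95% lower) and 17.2% with an unadjusted p under 0.05, and no other tool was run. Differences ran from −0.19 for Rptor (95% interval −0.56 to 0.17) to 0.18 for Tsc1 (−0.36 to 0.72), with adjusted p from 0.591 to 0.968. The intervals were narrowest for Akt1 (−0.079 to 0.19), Irs1 (−0.20 to 0.069), Akt2 (−0.18 to 0.14) and Irs2 (−0.18 to 0.26). For Igf1r the difference was −0.17 (−0.42 to 0.084) and for Insr 0.12 (−0.22 to 0.45). Differences inside these intervals are not excluded by these libraries. The model fits 1 dispersion per gene to both assays, whose spread (biological coefficient of variation) was 2.48% for RNA and 5.74% for m6A-RIP. The intervals may therefore be too narrow.

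**Figure D3:**
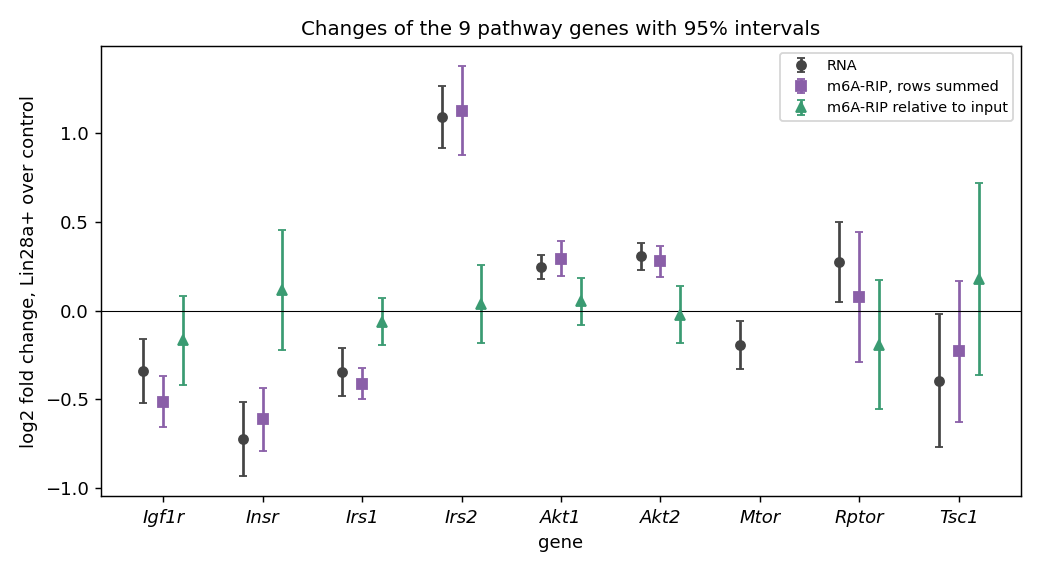
Log2 fold changes of Lin28a+ over control with 95% intervals for RNA, m6A-RIP with rows summed, and m6A-RIP relative to input. RNA and m6A-RIP lie side by side for each gene, the relative change spans 0 for all 8 genes tested, and Mtor has RNA alone.

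Of 85 pathway genes in that model 6 passed, or 7.06%. Relative to input, the lysosomal scaffold Lamtor1 (0.42), Eif4ebp2 (0.37) and Igf2 (0.89) were higher, and Tbc1d7, a subunit of the TSC complex (−3.08), Rps6 (−1.15) and Kptn (−0.997), which restrains mTOR complex 1, were lower. Tbc1d7 and Rps6 passed whichever library was left out. Igf2 was lost when any 1 of the input or control m6A-RIP libraries was left out (adjusted p = 0.0642 to 0.116). Eif4ebp2 and Kptn were lost when any 1 of the input libraries was left out, Eif4ebp2 also without control m6A-RIP replicate 2 or the first Lin28a+ m6A-RIP column, and Lamtor1 without control input replicate 1 or the first Lin28a+ input column. Thus 2 or 3 genes passed without an input library (2.35% to 3.53%), beside 4.03% to 4.62% of all genes.

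Nearest to each member in the pair of RNA and m6A-RIP changes, among 77 other pathway genes, were Pik3ca for Igf1r (Euclidean distance 0.128), Gsk3b for Insr (0.0574), Larp1 for Irs1 (0.0355), Gsk3a for Akt1 (0.0347) and for Akt2 (0.0975), Akt1s1 for Rptor (0.107) and Rragd for Tsc1 (0.0586). Irs2 had the most distant neighbour, the adaptor Gab1 (0.385), which changed by 0.71 in RNA and 1.10 in m6A-RIP.

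Lin28a-RIP was made from Lin28a+ cells alone, so its counts are levels with no comparison between groups. Both libraries gave each bound member nearly the same level. Irs1 had most, with 1102 and 1141 CPM, which ranked 184 of 3493 genes, followed by Igf1r with 642.8 and 644.1 (rank 351), Mtor with 192.3 and 191.2, Insr with 89.8 and 91.7, and Rptor with 44.8 and 47.4. Per kb of peak, Irs1 stood at 125.4 and 129.9 CPM, Igf1r at 50.5 and 50.6, Mtor at 42.2 and 42.0, Rptor at 39.4 and 41.6 and Insr at 22.6 and 23.1, beside a median of 47.3 over all genes of the table. Irs1 was thus high by density as well, at the 86.4th percentile, while Insr lay at the 16.0th. No input was set against these levels, so they follow RNA abundance as well as binding.

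Positions below are those of the deposited peaks, set against RefSeq genes of GRCm38.p6, the assembly also called mm10. In all, 86.1% of the peaks from Lin28a-RIP lay at least in part on their assigned gene, and exons and introns were not annotated here. Irs1, on the minus strand of chromosome 1, had 2 Lin28a-RIP peaks of 4589 bp (chr1:82233170-82237758) and 4198 bp (chr1:82286814-82291011). The former reaches to 65 bp before the gene's end and the latter begins 428 bp after its start. Peaks of 4000 bp or more made up 0.379% of all Lin28a-RIP peaks, whose median width was 285 bp. The peak at the gene's end held 48.3% and 50.4% of Irs1 counts in the respective libraries.

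Igf1r, on the plus strand of chromosome 7, had 18 peaks, at the 93.4th percentile of genes by number. They began 321 bp before the gene's start and ended 134 bp before its end. In both libraries 47.1% and 47.2% of counts lay within the last 10 kb, mainly in peaks of 2589 bp (chr7:68226486-68229074) and 4370 bp (chr7:68229165-68233534).

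The most upstream Igf1r peak (chr7:67951936-67952770, 19.6 and 20.4 CPM) spans the annotated start. The 250 bases before that start (chr7:67952007-67952256, plus strand, GRCm38.p6, RefSeq) are shown because the peak covers them, with GGAG in capitals:
Igf1r upstream: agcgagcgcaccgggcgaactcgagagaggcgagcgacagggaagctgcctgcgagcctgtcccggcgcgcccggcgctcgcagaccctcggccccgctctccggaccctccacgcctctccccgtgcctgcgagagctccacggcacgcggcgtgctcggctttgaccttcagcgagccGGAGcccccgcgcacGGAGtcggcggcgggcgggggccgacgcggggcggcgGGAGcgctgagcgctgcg
GGAG occurred 3 times on the gene's strand and 4 times on the other. Of 32851 RefSeq promoter windows of this length, 76.6% held it on the gene's strand, 94.1% on either strand and 29.8% at least as many times on the gene's strand, so the window is ordinary in this respect. The count describes letters and not a binding site.

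Mtor, on chromosome 4, had 14 Lin28a-RIP peaks of 214 to 590 bp between 7207 and 101567 bp after its start, with none among them wide. In the span of Mtor 7 further Lin28a-RIP peaks were listed for Exosc10 and Angptl7, and 2 in that of Rptor for Chmp6. Of Igf2bp3-RIP, 1 peak in the span of Mtor was listed for Exosc10. Insr, on chromosome 8, had 9 peaks of 250 to 755 bp (chr8:3152505-3259011 from first to last), and Rptor, on chromosome 11, had 5 of 200 to 304 bp, the most upstream 118 bp after the gene's start.

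**Figure D4:**
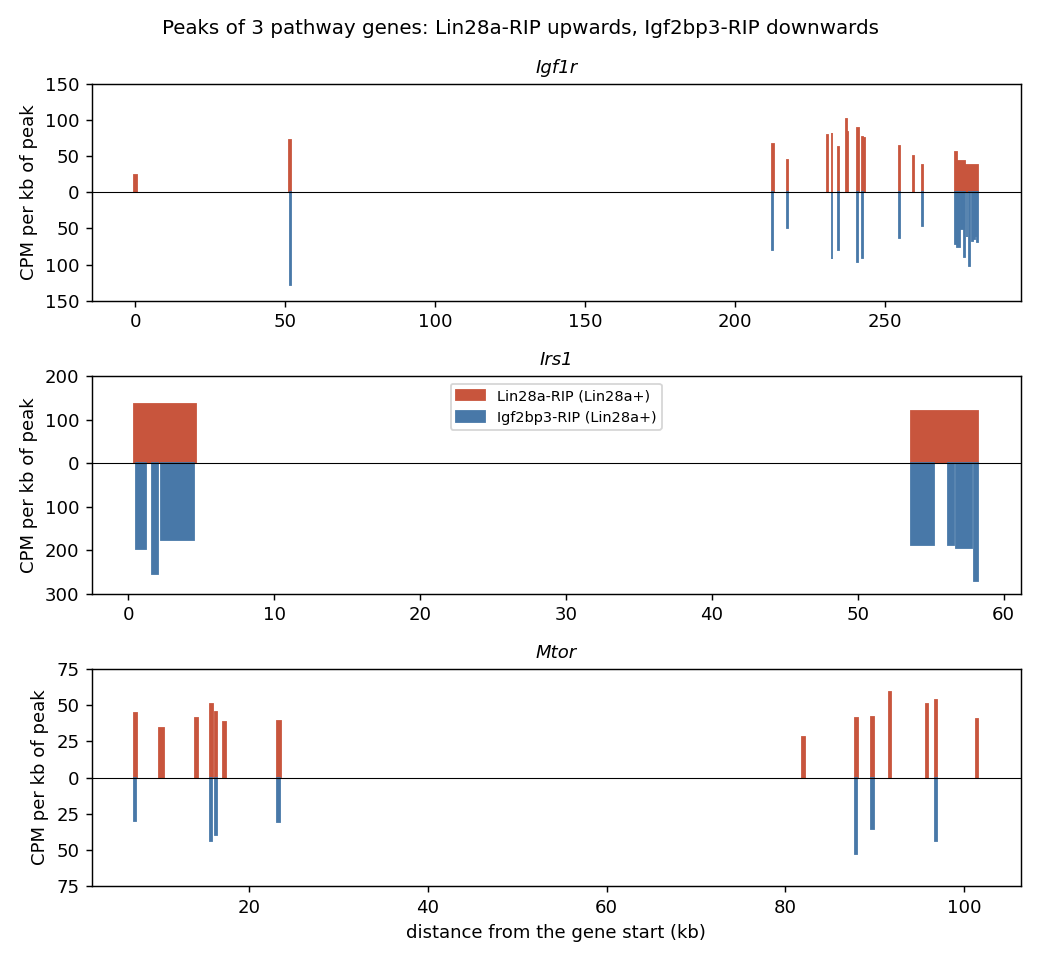
Peaks of Igf1r, Irs1 and Mtor by distance from the gene start in kb, with height in CPM per kb of peak averaged over the 2 Lin28a+ libraries of each assay; Lin28a-RIP points up and Igf2bp3-RIP down, and narrow peaks are drawn at the width of the outline. Igf2bp3-RIP peaks lie at Lin28a-RIP peaks, and Irs1 holds 2 wide blocks near its ends.

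Igf2bp3-RIP found 19 peaks in Igf1r, 7 in Irs1, 7 in Mtor, 4 in Insr, 2 in Rptor and 1 in Akt2. Of these 40 peaks 39 overlapped a Lin28a-RIP peak by at least 1 bp, the exception being that of Akt2 (chr7:27637910-27638127), a gene with no Lin28a-RIP peak. Among all genes with peaks of both proteins, 77.2% of Igf2bp3-RIP peaks did so. In the other direction 28 of 48 member peaks of Lin28a (58.3%) met a peak of Igf2bp3, beside 57.5%. In Irs1 the whole 6759 bp of Igf2bp3-RIP peaks lay inside the Lin28a-RIP peaks, and in Igf1r 99.4% of 6724 bp did.

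By level, Irs1 was again the highest, with 899.5 and 1405 CPM in control and 882.7 and 1748 in Lin28a+ libraries for replicates 1 and 2. Igf1r stood at 286.6 and 554.9 in control and 338.0 and 649.6 in Lin28a+ libraries. In both genes replicate 2 was higher than replicate 1 in both groups, and the gap between replicates was larger than that between groups. Their changes of 0.19 ± 0.42 and 0.23 ± 0.43 did not pass (adjusted p = 0.955 and 0.935).

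**Figure D5:**
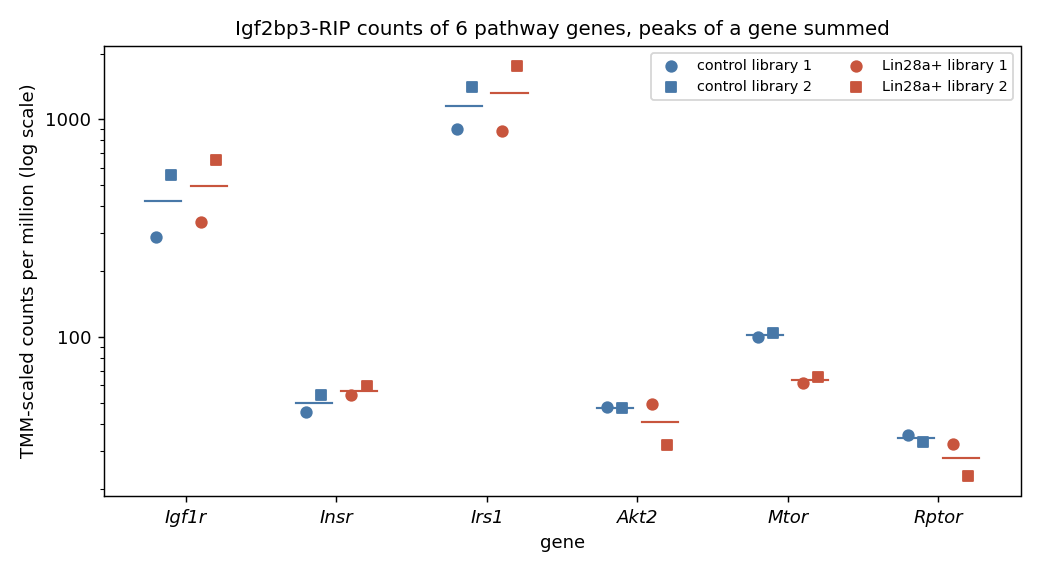
Igf2bp3-RIP counts of 6 pathway genes, peaks summed, in TMM-scaled CPM on a log axis, with a point for each library and a bar at each group mean; circles are replicate 1 and squares replicate 2. Mtor and Rptor do not overlap between groups, as for 38.2% of all genes, while Igf1r and Irs1 separate by replicate number.

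Of the 40 member peaks 0 passed with edgeR without a replicate block, and 2 had an unadjusted p under 0.05, both in Mtor. DESeq2 called 0, beside 1.35% of all peaks. Of all 19465 peaks 0.123% passed (0.0616% higher, 0.0616% lower) and 5.22% had an unadjusted p under 0.05, so the member peaks, at 5%, were at the background. All 7 Mtor peaks had lower levels in both Lin28a+ libraries than in both controls, with changes of −0.81 to −0.51 of which none passed. Groups of 2 often separate, and 16.8% of all peaks lay lower in this way without overlap. All 4 Insr and all 7 Irs1 peaks lay above 0, at 0.13 to 0.27 and 0.064 to 0.31. Peaks of a gene share their libraries and RNA and are not replicates of each other.

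With peaks summed, Mtor stood at 99.7 and 104.2 CPM in control and at 61.6 and 65.5 in Lin28a+ libraries. Its change of −0.68 ± 0.20 (95% interval −1.17 to −0.19) had an unadjusted p of 0.0145 and an adjusted p of 0.404, and did not pass. Rptor stood at 35.7 and 33.0 against 32.4 and 23.1 (−0.31 ± 0.27, adjusted p = 0.844). Insr stood at 45.2 and 54.4 against 54.1 and 59.5 (0.19 ± 0.22, adjusted p = 0.888), and Akt2 at 47.6 and 47.3 against 49.3 and 31.9 (−0.23 ± 0.28, adjusted p = 0.890). Of 50 pathway genes 0 passed with edgeR without a replicate block, and 5 had an unadjusted p under 0.05 (Mtor, Deptor, Foxo3, Pik3r3 and Tbc1d1, all negative). Of 4527 genes 0.287% passed (0.133% higher, 0.155% lower) and 8.44% had an unadjusted p under 0.05, beside 10% of the pathway genes. DESeq2 called 2, Deptor and Pik3r3, named here after their values were seen, beside 2.54% of all genes.

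Relative to input, without a replicate block, 0 of 6 members and 0 of 49 pathway genes passed with edgeR. Of all 3753 genes 1.36% passed (0.48% higher, 0.879% lower). An unadjusted p under 0.05 was reached by 4 members and 14 pathway genes (28.6%), beside 24.9% of all genes. Calls with a block are given in the closing section. Mtor came nearest, at −0.72 (95% interval −1.06 to −0.38, adjusted p = 0.0579). Rptor stood at −0.82 (−1.43 to −0.22, adjusted p = 0.116), Akt2 at −0.77 (−1.42 to −0.11, adjusted p = 0.151) and Insr at 0.68 (0.17 to 1.18, adjusted p = 0.120). Irs1 (0.30, −0.86 to 1.46) and Igf1r (0.34, −0.997 to 1.68) had the widest intervals of the 6. The model fits 1 dispersion per gene to both assays, whose spread (biological coefficient of variation) was 2.48% for RNA and 25.4% for Igf2bp3-RIP. For Mtor the SE was 0.14, below its 0.20 in Igf2bp3-RIP alone, and Insr, Rptor and Akt2 likewise had smaller SEs. For Irs1 and Igf1r it was larger. The intervals and p-values relative to input may therefore be too narrow. With each of the 8 libraries left out in turn, Mtor ranged from −0.76 to −0.66, Rptor from −1.06 to −0.57, Akt2 from −1.09 to −0.45 and Insr from 0.55 to 0.82. In this model the TMM factors are set over the genes of both tables (genes listed in Igf2bp3-RIP had a median RNA change of −0.26), and the 6 values lie 0.23 to 0.24 below the difference of the separate Igf2bp3-RIP and RNA changes. With factors set over each whole table, an alternative added after seeing the data, the median of all genes went from 0.022 to 0.25. Mtor then stood at −0.49 (adjusted p = 0.0816), Rptor at −0.59 (0.185), Akt2 at −0.53 (0.249), Insr at 0.91 (0.0520), Igf1r at 0.57 (0.531) and Irs1 at 0.53 (0.502). The sizes relative to input, and which member came nearest, thus depend on the genes that set the factors. Total counts moved the median of all genes by 0.13 and gave 0 calls in the pathway list, while calls over all genes turned from 18 higher and 33 lower to 72 higher and 28 lower.

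Set side by side by their edgeR calls, the 5 members with Lin28a-RIP peaks were 4 lower in RNA (Igf1r, Insr, Irs1 and Mtor) and 1 higher (Rptor). The 4 without were 3 higher (Irs2, Akt1 and Akt2) and 1 that did not pass (Tsc1). With DESeq2 only the calls of Irs1 and Irs2 were kept, so the split rests largely on the edgeR calls. Among all genes tested for RNA, 42.5% of those listed in the Lin28a-RIP table were lower and 20.5% higher, with a median of −0.20, while of those not listed 23.9% were lower and 30.8% higher, with a median of 0.080. The Igf2bp3-RIP table shows a like split, with 46.2% of its listed genes lower and 15.8% higher (median −0.26) beside 20% and 34.3% of those not listed (0.14). Its members were 4 lower (Igf1r, Insr, Irs1 and Mtor) and 2 higher (Akt2 and Rptor). A gene's chance of being listed depends on its RNA level and length, and their part in this was not tested.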

How the data were processed

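The RIP tables that the authors deposited hold raw counts for each row or peak. The input table, also deposited by the authors, holds estimated counts for each gene, which are mostly not whole and were rounded before testing. Within 0.01, those of Irs2 are whole, those of Mtor, Akt1 and Tsc1 whole multiples of 1/4, 1/9 and 1/11, and the other members show no such step up to 1/20. How they were made is not given in the sources used here, so the input levels, SEs and calls, that of Tsc1 included, may depend on it. Per the submitters' processing notes, reads were aligned with HISAT2 2.0.4, with GRCh38 and mm10 listed, peaks were called with MACS2 and RNA compared with DESeq2 1.42.0. The gene identifiers are of mouse.

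Tables were fitted whole in R 4.3.3 with edgeR 4.0.16 (quasi-likelihood test, TMM factors, filterByExpr, Benjamini-Hochberg adjusted p under 0.05). Rows or peaks of a gene were summed for tests per gene, changes relative to input came from the interaction of cells and assay in 1 model with factors set within each assay over the genes in both tables (or, added after seeing the data, over each whole table), and rows within a gene were tested with diffSpliceDGE. SE is the larger of the model's value and that implied by p. Scripts were tested on simulated data. Alternatives were DESeq2 1.42.0, total counts or RLE factors, filters (none, or 10 counts in every library), each library left out in turn, and a replicate block for Igf2bp3-RIP.

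Lin28a+ columns of input and m6A-RIP entered their group with no replicate number. The members and the pathway lists were chosen with earlier results of these data known. The text names all members and, from the other pathway genes past the threshold whose libraries do not overlap, those with the smallest p in each direction (8 for RNA, 5 for m6A-RIP, 3 relative to input and for Igf2bp3-RIP), with the nearest gene to each member. Lin28a itself was not analysed here. Symbols were matched for 99.96% of input rows. Replicates differed by more than sampling noise (chi-square per degree of freedom 1.57 and 1.64 for input, 3.61 and 3.75 for m6A-RIP, 33.5 and 36.4 for Igf2bp3-RIP and 3.83 for Lin28a-RIP). For input this covers only genes with whole values in both libraries, 636 in control and 634 in Lin28a+ cells, and the other input genes were not compared in this way.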

Additional observations from a re-analysis of the deposited data

How the results depend on the processing

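Each library left out leaves its group with a lone library, which is then assumed to vary like the other group. In RNA, all members kept their direction under every alternative, and DESeq2 called 28 pathway genes in place of 67, leaving 2 of the 8 member calls. Leaving out a library gave 51 to 58 pathway genes for RNA (beside 46.2% to 50.4% of all genes), 17 to 20 member rows (53.8% to 55.9% of all rows) and 53 to 59 genes (61.4% to 62.2%) for m6A-RIP, 2 to 7 genes for m6A-RIP relative to input (4.03% to 8.16%), 0 to 1 row within a gene (5.4% to 5.76%), 0 to 0 member peaks (0.555% to 0.992%), 1 to 3 genes for Igf2bp3-RIP (0.861% to 1.61%) and 0 to 10 relative to input (0% to 16.6%). DESeq2 called 2 pathway genes in Igf2bp3-RIP, and factors over each whole table gave 5 relative to input, all higher (10.2%), beside 5.94% of all genes higher and 1.01% lower.

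The sign of some small changes turned. Rptor in m6A-RIP turned with total counts (−0.025, and −0.10 for row 2) and ranged from −0.060 to 0.21 over libraries left out (row 2, −0.20 to 0.32), and row 1 of Tsc1 from −0.40 to 0.0052. Relative to input, Akt2 ranged from −0.047 to 0.0015, Irs2 from −0.069 to 0.12 and Tsc1 from −0.046 to 0.35. In Igf2bp3-RIP, Akt2 ranged from −0.56 to 0.094, Igf1r from −0.27 to 0.79 and Irs1 from −0.34 to 0.62, and relative to input Igf1r ranged from −0.18 to 0.90 and Irs1 from −0.24 to 0.73. None of these was called in the tests without a replicate block.

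With the replicate number as a block, Igf2bp3-RIP gave 3 member peaks, all lower and in Mtor, 6 pathway genes, Mtor among them (adjusted p = 0.0238), and 21 genes relative to input, with Mtor, Insr, Rptor, Akt2 and Igf1r among the members (adjusted p = 0.00377, 0.0120, 0.0126, 0.0264 and 0.0333). These shares of 7.5%, 12% and 42.9% stand beside 10.2%, 8.26% and 35.7% of all features called with the block. The deviations of same-numbered libraries correlated over 19465 peaks with r = 0.688, but the labels do not say what a number shares and 2 pairs do not settle it. No paired analysis was possible because of the column names for RNA and m6A-RIP, whose Lin28a+ columns carry no usable number.

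With 2 libraries per group, the spread rests on what genes share, at 2.48% (biological coefficient of variation) for RNA and 27.9% for Igf2bp3-RIP peaks in these libraries.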
